A study of Solanum lycopersicum with 10 samples.

Results

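The loci described here are ACC synthases and ACC oxidases of tomato (Solanum lycopersicum), the enzymes of the last 2 steps of ethylene synthesis. They come from a list of Solyc identifiers, of which 9 (5 ACC synthases and 4 ACC oxidases) were looked up in the deposited table of 35767 loci, and 8 were found. The 4 synthases found were ACS1A (Solyc08g081550), ACS2 (Solyc01g095080), ACS3 (Solyc02g091990) and ACS8 (Solyc03g043890). The 4 oxidases were ACO1 (Solyc07g049530), ACO4 (Solyc02g081190), ACO5 (Solyc07g026650) and ACO6 (Solyc02g036350). Solyc08g008100, listed as ACS6, had no row and was not analysed here. The table carries no gene names, so the symbols are those given with the list. In the RefSeq gene table (assembly SLM_r2.1) each of the 9 symbols lies on the chromosome written in its Solyc identifier, which does not check the match gene by gene.

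All plants were of line M82. The 4 groups were root tips on 2,4-D (n = 2), root tips under mock treatment (n = 2), leaf primordia sprayed with picloram (n = 3) and leaf primordia under mock treatment (n = 3). The root groups were seedlings on plates, kept at 22 °C under unbroken light. At 4 days from germination the seedlings spent 3 h with 1 µM 2,4-D or mock, after which root tips of 1 cm were cut off. Plants of the leaf groups grew for 3 weeks in a greenhouse, were sprayed with mock or 1 µM picloram for 3 h, and gave 15 primordia of leaf 5 at the P5 stage for a collection. 2,4-D and picloram are both synthetic auxin analogs. Nothing in the labels says whether replicates came from separate plants, so the spread between these libraries may be technical. P-values weigh differences against that spread, pooled over both tissues and moderated over all loci fitted.

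Ethylene is made from methionine by way of S-adenosylmethionine. ACC synthase turns S-adenosylmethionine into 1-aminocyclopropane-1-carboxylate (ACC), usually the rate-limiting step, and ACC oxidase turns ACC into ethylene. Both enzymes are encoded by gene families whose members differ by tissue and by stimulus, and auxin is a long-known inducer of ACC synthase genes in seedlings. ACS2 is best known from ripening tomato fruit, ACS1A and ACS6 from unripe fruit, and ACO1 from ripening fruit and senescing leaves.

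Transcripts were counted with a 3' end kit, so that values do not scale with gene length in the way of whole-transcript reads. Values are the authors' normalized counts per locus, summing to 2826432 to 2959481 in a root library and 1827818 to 2064685 in a leaf library. Summed levels of 13 photosynthesis markers (3 Rubisco small-subunit loci and 10 light-harvesting loci) were 11.9 to 97.8 in root libraries, with 4 to 9 markers at 0, and 7717 to 15449 in leaf libraries, with 0 at 0. No markers that define root were on the lists. In bulk tissue, fewer cells of a type and less RNA per cell cannot be told apart.

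**Figure D1:**
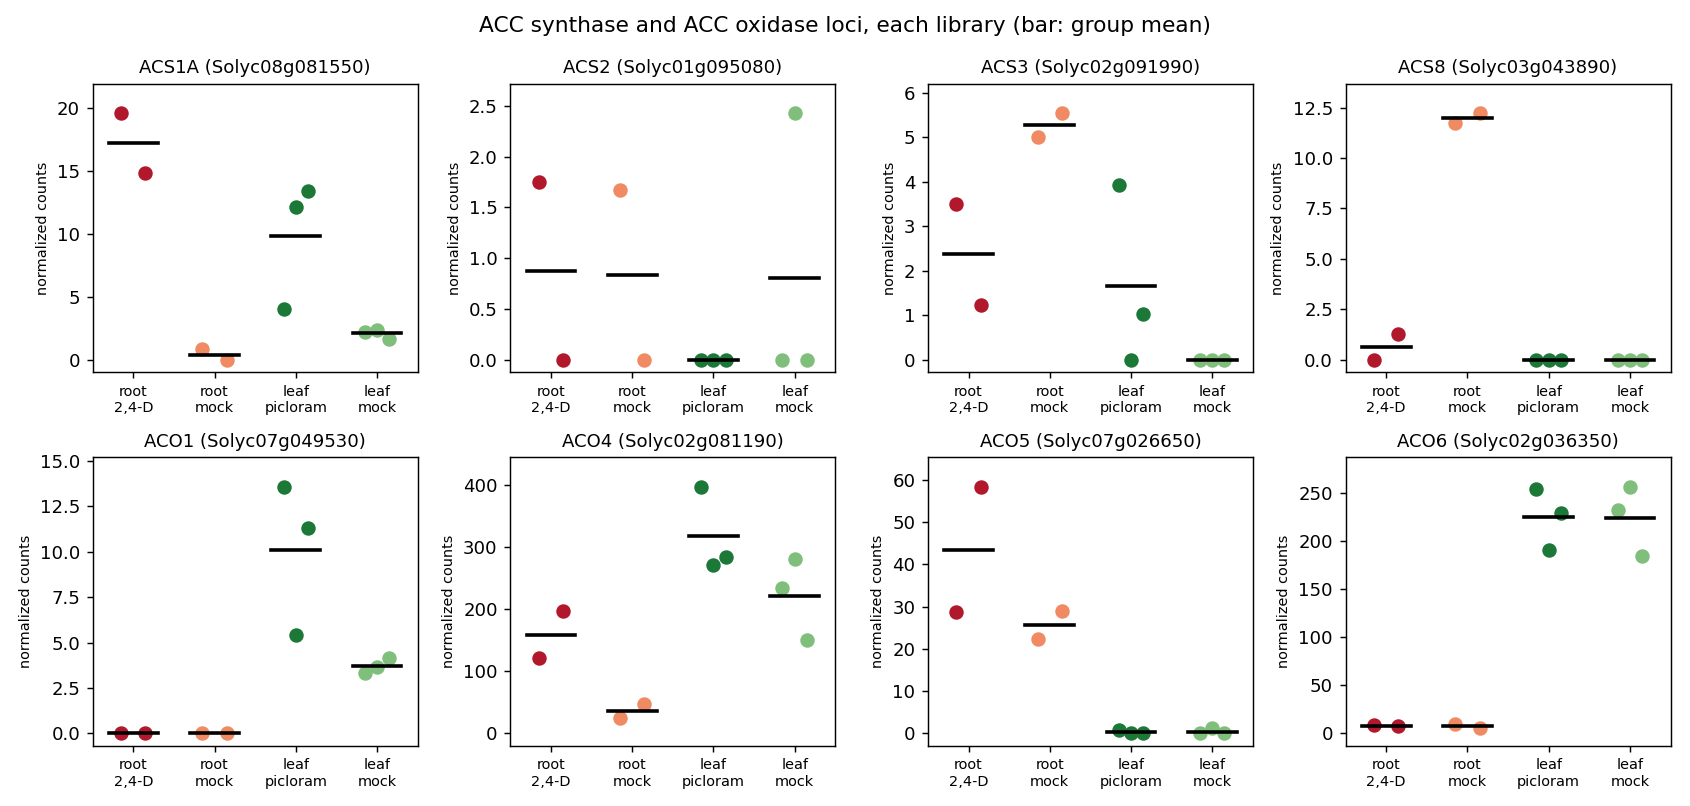
Normalized counts (vertical axis, linear, its own range in each panel) of the 8 loci in each library of the 4 groups, with a bar at the group mean. ACO4 stands at 122 and 197 on 2,4-D against 24.5 and 47.3 in mock root, ACO6 lies between 184 and 256 in leaf and under 10 in root, and ACS8 is above 2 only in the 2 mock root libraries.

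The first comparison, 2,4-D against mock in root tips, addressed the response of these transcripts to auxin. ACS1A and ACO4 rose and ACS8 fell, while ACO5 was not called. The 8 loci thus split into 2 that rose, 1 that fell, 1 tested and not called, and 4 (ACS2, ACS3, ACO1 and ACO6) that stayed under the minimum of 10 normalized counts in 2 root libraries and were not tested. Of all 12664 loci tested in root, 4.55% were called at an adjusted p under 0.05 (limma, Benjamini-Hochberg over all loci tested), 3.48% as higher and 1.07% as lower. ACS1A reached the minimum only through its 2,4-D libraries, so it had to rise in order to be tested. ACS8 reached the minimum only through its mock libraries, the group where it was higher. Those libraries would have let it be tested at any 2,4-D level, though they lay only just above the minimum.

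Among the synthases, ACS1A stood at 19.6 and 14.8 normalized counts in the 2,4-D libraries, against 0.813 and 0 in the mock libraries. Both 2,4-D libraries lay far above both mock libraries. The fitted difference of log2(value + 1) was 3.75 ± 0.56 (SE, adjusted p = 0.00237). Because mock was near 0, its size follows the pseudocount, from 2.03 with a pseudocount of 5 to 4.44 with a pseudocount of 0.5, and it was called with each. Without either 2,4-D library the locus fell under the minimum and was not tested.

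ACS8 showed the opposite pattern, at 0 and 1.25 normalized counts on 2,4-D, against 11.7 and 12.2 in mock. The groups did not overlap, and all 4 values were low. The fitted difference was -3.11 ± 0.45 on the log2(value + 1) scale (SE, adjusted p = 0.00206), between -1.60 and -3.74 over the alternatives that tested it, and the locus was not tested without either mock library or with equal library totals. ACS3, which has been associated with flooded roots, had 3.51 and 1.23 normalized counts on 2,4-D and 5.01 and 5.54 in mock. Its 2,4-D values lay below its mock values, but at levels too low to be tested. ACS2 had 1.75 and 0 on 2,4-D and 1.67 and 0 in mock, which shows no separation.

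The summed synthase signal of the 4 loci was similar in both groups while its makeup differed. It was 24.8 and 17.3 normalized counts on 2,4-D, against 19.2 and 17.8 in mock. ACS1A made up 78.8% and 85.7% of that sum on 2,4-D, against 4.23% and 0% in mock. ACS8 made up 0% and 7.22% on 2,4-D, against 61.0% and 68.8% in mock. These sums leave out Solyc08g081540, listed as ACS1B, which had more signal than the 4 together, with 82.0 and 66.6 on 2,4-D and 61.7 and 49.6 in mock (0.41 ± 0.52 on the log2 scale, SE, adjusted p = 0.788). RefSeq places ACS1A and ACS1B next to each other, and reads of such close copies can be assigned to either, so the split between the pair is uncertain.

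Among the oxidases, ACO4 had 122 and 197 normalized counts on 2,4-D, against 24.5 and 47.3 in mock. The groups were apart, and in each the library numbered 2 was the higher. It rose by 2.15 ± 0.36 on the log2 scale (SE, adjusted p = 0.00456), a ratio of means of 4.44. Without mock library 1 the value was 1.69 (adjusted p = 0.0656) and without 2,4-D library 2 it was 1.81 (adjusted p = 0.105), so both omissions ended the call.

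The libraries numbered 2 also carried more photosynthesis marker signal, 97.8 on 2,4-D and 93.9 in mock, against 11.9 on 2,4-D and 12.0 in mock for the libraries numbered 1. The signal of 97.8 is 0.664% of the mean in mock leaf, and its part in the ACO4 values was not tested. ACO6, which was as abundant as ACO4 in mock leaf, had 8.67 and 7.38 on 2,4-D and 9.31 and 5.54 in mock, with overlapping groups.

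ACO5 had 28.6 and 58.3 normalized counts on 2,4-D, against 22.2 and 28.9 in mock. The groups overlapped and the difference of 0.67 ± 0.56 (SE, adjusted p = 0.638) was not called. Its 95% interval, -0.54 to 1.89, leaves room for a rise as well as for a fall. ACO1 was listed at 0 in all 4 root libraries.

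The summed signal of these 4 oxidases was 159 and 263 normalized counts on 2,4-D, against 56.0 and 81.7 in mock. ACO4 held 76.5% and 75.0% of it on 2,4-D, against 43.7% and 57.9% in mock. The share of ACO5 was 18.0% and 22.2% on 2,4-D, against 39.7% and 35.3% in mock. ACO4 thus had the highest level of the 4 in each root library, with its larger shares on 2,4-D. These sums leave out the further ACC oxidase Solyc07g049550, which had 7.04 and 13.5 normalized counts on 2,4-D and 3.39 and 2.19 in mock.

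**Figure D2:**
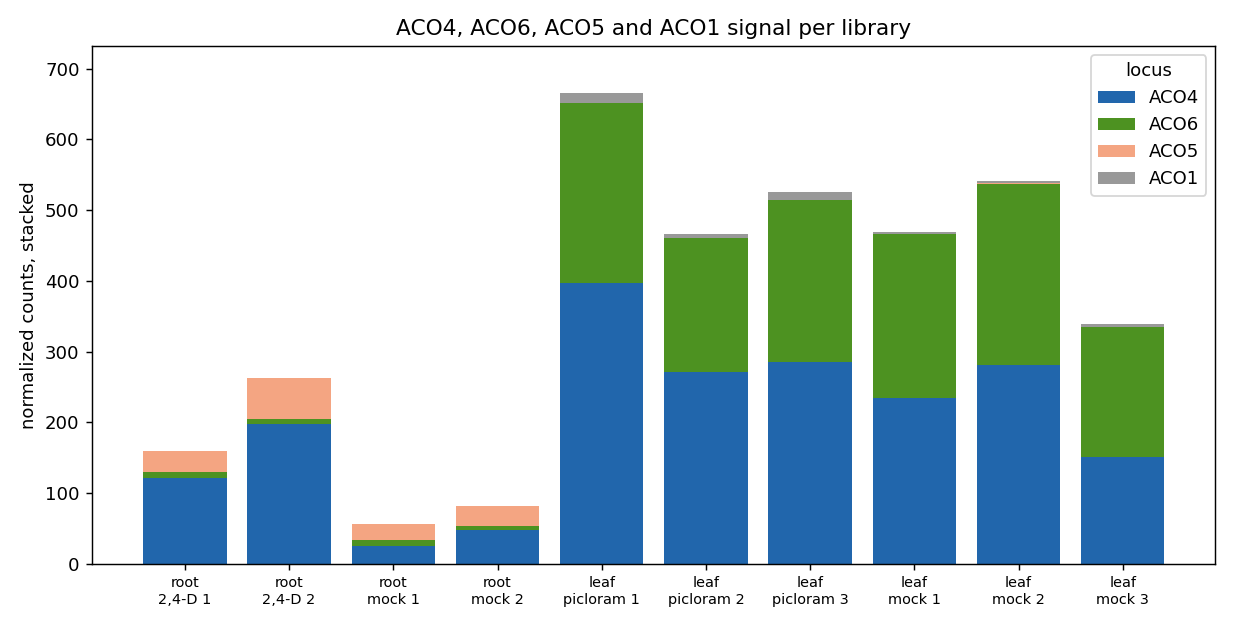
Normalized counts of ACO4, ACO6, ACO5 and ACO1 (vertical axis, linear from 0), stacked for each of the 10 libraries. ACO4 fills most of each 2,4-D root bar, whose totals are 159 and 263 against 56.0 and 81.7 in mock root, and ACO4 and ACO6 fill most of every leaf bar, whose totals run from 466 to 665 under picloram and from 338 to 542 in mock.

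In leaf primordia the same question was asked of picloram. ACS1A rose, and none of the 3 tested oxidases was called, although ACO1 and ACO4 had differences above 0. Of the 8 loci, 4 were tested and 1 was called, and ACS2, ACS3, ACS8 and ACO5 were under the minimum. Over all 14410 loci tested in leaf, 10.2% were called, 4.89% as higher and 5.26% as lower.

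ACS1A had 4.03, 12.2 and 13.4 normalized counts under picloram, against 2.22, 2.39 and 1.64 in mock. Every picloram library was above every mock library, and picloram library 1 was the lowest of its group. The difference was 1.68 ± 0.45 on the log2 scale (SE, adjusted p = 0.0373). The locus reached the minimum only through picloram libraries 2 and 3 and was not tested without either. The call was lost when any 1 mock leaf library was left out (adjusted p = 0.0602, 0.0722 and 0.0954), with leaf fitted alone (adjusted p = 0.145) and under 2 other alternatives.

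ACO1 had 13.6, 5.44 and 11.3 normalized counts under picloram, against 3.31, 3.68 and 4.14 in mock. The groups did not overlap, yet the difference of 1.16 ± 0.38 (SE, adjusted p = 0.0788) was not called. It too reached the minimum only through picloram libraries. It was called without picloram library 2 (adjusted p = 0.0339) and with no mean-variance trend (adjusted p = 0.0437), and it was not tested without picloram library 1 or 3.

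ACO4 had 397, 271 and 285 normalized counts under picloram, against 235, 281 and 151 in mock. The groups overlapped, and the difference was 0.54 ± 0.29 (SE, adjusted p = 0.278).

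ACO6 had 254, 190 and 229 normalized counts under picloram, against 232, 256 and 184 in mock. The groups covered the same range. The difference was 0.01 ± 0.22 (SE, adjusted p = 0.989) with a 95% interval of -0.46 to 0.48 on the log2 scale, so a change of the size seen for ACO4 in root lies outside the interval. ACO5 was at 0.794, 0 and 0 under picloram and at 0, 1.20 and 0 in mock. ACS8 was listed at 0 in all 6 leaf libraries. ACS3 had 3.92, 0 and 1.03 under picloram and 0 in each mock library, and ACS2 was at 0 in each picloram library and at 0, 2.43 and 0 in mock.

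The summed signal of the 4 oxidases, again without Solyc07g049550, was 665, 466 and 526 normalized counts under picloram. In mock the sum was 470, 542 and 338, with overlapping groups. ACO4 made up 59.7%, 58.1% and 54.2% of it under picloram, against 50.0%, 51.8% and 44.5% in mock. ACO6 made up 38.1%, 40.8% and 43.6% under picloram, against 49.3%, 47.3% and 54.3% in mock. The shares of ACO4 and of ACO6 did not overlap between the groups, and since both loci make up nearly the whole sum, the share of one falls as that of the other rises. No test was run on them.

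Other loci moved with the leaf groups. The summed photosynthesis markers were 7717, 9061 and 10161 normalized counts under picloram, against 14241, 15449 and 14527 in mock, and 4 of the 13 markers were called lower and 0 higher, where 5.26% of all leaf loci were called lower and 4.89% higher. The morning-phased clock locus Solyc10g005080 was at 689 ± 84.3 under picloram and 81.8 ± 9.14 in mock, and the evening-phased clock locus Solyc12g056650 at 87.1 ± 3.15 under picloram and 300 ± 34.2 in mock (SD, n = 3). Both clock loci were picked with these results known. In root Solyc12g056650 was at 90.7 ± 21.3 on 2,4-D and 48.6 ± 5.40 in mock (SD, n = 2), and was called higher by limma (adjusted p = 0.0231). Solyc10g005080 was at 36.1 ± 1.11 on 2,4-D and 26.3 ± 1.86 in mock root (SD, n = 2) and was not called (adjusted p = 0.228). The part of tissue makeup or of sampling hour in the leaf or root values of ACS1A, ACS8 and the oxidases was not tested.

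**Figure D3:**
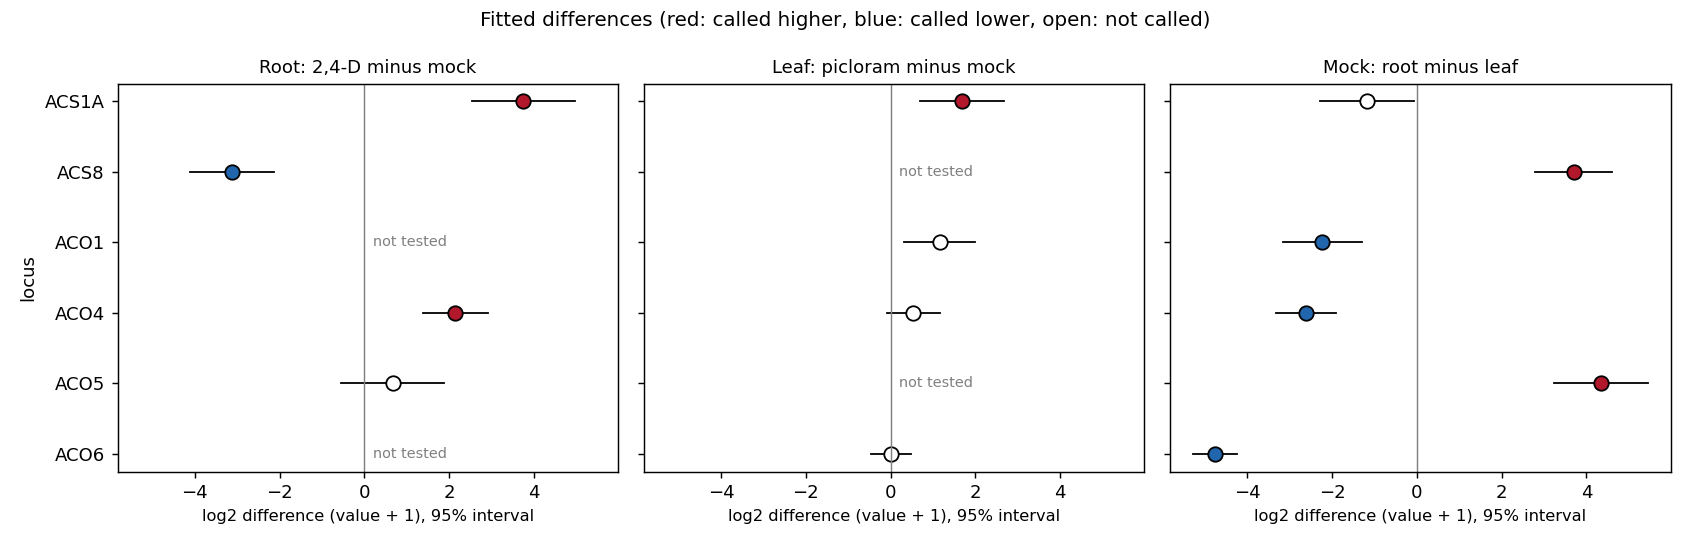
Fitted differences of log2(value + 1) with 95% intervals (horizontal axis) for the 6 loci tested in any comparison, for 2,4-D minus mock in root, picloram minus mock in leaf, and mock root minus mock leaf. In root ACS1A (3.75) and ACO4 (2.15) are called higher and ACS8 (-3.11) lower, in leaf ACS1A (1.68) alone is called, and between mock tissues ACO5 and ACS8 are higher in root and ACO1, ACO4 and ACO6 lower.

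Whether the root response differed from the leaf response was tested directly for the 2 loci tested in both tissues. Tissue, compound, plant age and application changed together between these experiments and cannot be told apart. By limma 0 of the 2 differences was called at an adjusted p under 0.05, where 3.76% of 11313 loci were called (2.2% higher and 1.56% lower). Of the 2, 2 had an unadjusted p under 0.05, as had 1923 of the 11313 loci, with no other tool run. The response of ACO4 was higher in root by 1.61 ± 0.46 (SE, adjusted p = 0.087), with a 95% interval of 0.61 to 2.61. It was called without mock leaf library 3 (1.87, adjusted p = 0.0389), and over all alternatives the adjusted p ran from 0.0245 to 0.352. The difference for ACS1A was 2.06 ± 0.72 (SE, adjusted p = 0.16), with a 95% interval of 0.49 to 3.63. In both tissues ACS1A reached the minimum only through treated libraries, and its mock levels were near 0. The size of its difference thus follows the pseudocount, from 1.03 with a pseudocount of 5 to 2.58 with a pseudocount of 0.5.

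The baseline of the family was read from mock root tips against mock leaf primordia. ACO5 and ACS8 were higher in root tips, and ACO1, ACO4 and ACO6 were higher in leaf primordia. ACO5 and ACS8 reached the minimum only through root libraries, ACO6 only through leaf libraries and ACO1 only through picloram leaf libraries, so of these 5 loci only ACO4 was tested without that selection. Of 6 tested loci, 2 were called higher in root and 3 lower, where 62.5% of all 15761 loci were called (32.7% higher and 29.8% lower). A call is therefore common in this comparison, and its size is the more informative value.

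ACO5 averaged 25.5 ± 4.68 normalized counts in mock root (SD, n = 2) and 0.40 ± 0.692 in mock leaf (SD, n = 3), a difference of 4.34 ± 0.51 (SE, adjusted p = 1.47e-05) that rests on a leaf level near 0. ACS8 averaged 12.0 ± 0.346 in mock root (SD, n = 2) and was listed at 0 in mock leaf, so that no fold is given (adjusted p = 1.03e-05). The mock groups of the 2 tissues did not overlap for 7 of the 8 loci, ACO5 and ACS8 among them. The share of all loci without overlap was not counted. Outside the 8 loci, Solyc08g081540, listed as ACS1B, had more signal in mock root than ACS8. It averaged 55.7 ± 8.55 in mock root (SD, n = 2) and 2.88 ± 1.65 in mock leaf (SD, n = 3). The difference was 3.94 ± 0.48 (SE, adjusted p = 2.03e-05), and this locus too reached the minimum only through root libraries.

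In the other direction, ACO6 averaged 7.43 ± 2.67 in mock root (SD, n = 2) and 224 ± 36.7 in mock leaf (SD, n = 3), a log2 difference of -4.76 ± 0.24 (SE, adjusted p = 2.37e-08). ACO4 averaged 35.9 ± 16.2 in mock root (SD, n = 2) and 222 ± 66.1 in mock leaf (SD, n = 3), a difference of -2.62 ± 0.32 (SE, adjusted p = 2.35e-05). ACO1 was listed at 0 in mock root and averaged 3.71 ± 0.414 in mock leaf (SD, n = 3; adjusted p = 0.000668). ACS1A was near 0 in both, at 0.41 ± 0.575 in mock root (SD, n = 2) and 2.08 ± 0.391 in mock leaf (SD, n = 3), and was not called (-1.19 ± 0.51, SE, adjusted p = 0.0593). It was called lower in root under 4 alternatives, among them equal library totals. The authors' scaling left root totals above leaf totals, and equal totals moved the median difference of all loci to -0.51, against 0.08 as deposited, without turning the direction of the 5 loci then tested. ACS8 fell under the minimum with equal totals and was not tested.

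Across all 4 groups, the order of mean ACO4 levels was picloram leaf (318 ± 69.2), mock leaf (222 ± 66.1), 2,4-D root (159 ± 53.3) and mock root (35.9 ± 16.2), each SD over 2 root or 3 leaf libraries. In that order mock leaf overlapped both picloram leaf and 2,4-D root, so that ACO4 on 2,4-D came within the range of mock leaf. For ACS1A the order was 2,4-D root (17.2 ± 3.36), picloram leaf (9.87 ± 5.09), mock leaf (2.08 ± 0.391) and mock root (0.41 ± 0.575), and no neighbours overlapped. For ACO6 picloram leaf (224 ± 32.1) and mock leaf (224 ± 36.7) overlapped, as did 2,4-D root (8.02 ± 0.912) and mock root (7.43 ± 2.67). ACO4 in picloram leaf stood above 97.0% of all 35767 loci by mean level, while ACS1A reached 70.4% at most, in 2,4-D root.

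The 2 loci whose log2 values followed ACO4 most closely over the 10 libraries, among 15760 others, were Solyc01g105410 (Pearson r = 0.989) and Solyc03g094160 (r = 0.983). ACO4 had the highest mean of the 8 loci. Solyc01g105410 had 91.1 and 101 normalized counts on 2,4-D, against 17.4 and 29.5 in mock root. In leaf it had 189, 154 and 133 under picloram, against 119, 128 and 79.1 in mock. Both tissues share the 10 libraries of this correlation, so part of it is the difference between root and leaf, and the table gives no name for either locus.

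The other steps of the pathway were read from a list of 24 more identifiers written from memory of the tomato literature, all of which had a row. For 20 of them RefSeq has the listed symbol, on the chromosome of the identifier for 19. Only the F-box locus Solyc07g008250 differed, since RefSeq places EBF2 on chromosome 8. In root 3 of 17 tested loci rose and 0 fell, where 3.48% of all loci tested were called higher and 1.07% lower, with a median of 0.28 on the log2 scale against -0.02 over all loci tested in root. In leaf 7 of 18 rose and 0 fell, where 4.89% of all loci tested were called higher and 5.26% lower, with a median of 0.62 against 0.00 over all loci tested in leaf. The root count was 0 without mock root library 1 or 2,4-D library 1 and 1 without mock root library 2 or 2,4-D library 2. The leaf count was 3 without any 1 picloram library, and 4 without mock leaf library 2 or with no mean-variance trend.

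Upstream of ACC, S-adenosylmethionine synthetases supply the substrate. In leaf Solyc01g101060 rose, with 240 ± 18.2 normalized counts under picloram and 126 ± 53.0 in mock (SD, n = 3), by 1.01 ± 0.26 (SE, adjusted p = 0.0289). Solyc12g099000 rose as well, with 154 ± 36.2 under picloram and 65.9 ± 27.6 in mock (SD, n = 3), by 1.29 ± 0.35 (SE, adjusted p = 0.0381). Both calls ended without any 1 picloram library, as well as without mock leaf library 2 for Solyc01g101060 and without mock leaf library 1 or either mock root library for Solyc12g099000. The highest adjusted p of any alternative was 0.0994 for Solyc01g101060 and 0.136 for Solyc12g099000. The most abundant of the 4, Solyc09g008280, was at 1368 ± 176 under picloram and 1186 ± 65.6 in mock (SD, n = 3) and was not called (adjusted p = 0.301). In root 0 of the 4 synthetases was called by limma, against 4.55% of all root loci. An unadjusted p under 0.05 was found for 0 of the 4, and for 2066 of all 12664 root loci. Solyc09g008280 was at 4312 ± 132 on 2,4-D and 4805 ± 382 in mock root (SD, n = 2).

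Of the further synthesis loci, Solyc05g050010, listed as the ripening synthase ACS4, was at 0 in all 10 libraries. The further ACC oxidase Solyc07g049550 had 35.9, 18.9 and 13.2 normalized counts under picloram, against 12.7, 11.1 and 9.06 in mock leaf. All picloram values lay above all mock values, and the difference of 0.88 ± 0.41 (SE, adjusted p = 0.206) was not called. In root it had 7.04 and 13.5 on 2,4-D, against 3.39 and 2.19 in mock, and was under the minimum.

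Downstream, ethylene receptors are negative regulators that ethylene switches off, and several of their genes are themselves induced by ethylene. In leaf 3 of 7 receptor loci rose and 0 fell, against 4.89% of all leaf loci called higher. Solyc06g053710, listed as ETR4, was at 90.6 ± 13.3 under picloram and 30.2 ± 11.2 in mock (SD, n = 3), a rise of 1.62 ± 0.26 (SE, adjusted p = 0.00284) that was called in each of 20 alternatives. Solyc09g075440 (2.74 ± 0.73, SE, adjusted p = 0.0351) and Solyc09g089610, listed as ETR6 (1.50 ± 0.37, SE, adjusted p = 0.0261), also rose, the second of them having reached the minimum only through picloram libraries, but each lost its call in 7 alternatives (highest adjusted p = 0.123 and 0.0809). Among these were each omission of 1 picloram library, mock leaf library 1 or 2 for Solyc09g075440, and mock leaf library 2 or 3 for Solyc09g089610. Solyc09g075440 had 50.3, 63.8 and 69.1 normalized counts under picloram, against 4.59, 3.54 and 29.9 in mock, where library 3 stood apart. In root 0 of 5 tested receptors was called by limma, against 4.55% of all root loci. Of the 5, 1 had an unadjusted p under 0.05, as had 2066 of all 12664 root loci. Solyc06g053710 had 70.1 and 68.8 on 2,4-D against 36.7 and 40.2 in mock (0.84 ± 0.32, SE, adjusted p = 0.207).

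EBF F-box proteins target the EIN3-like transcription factors for breakdown, and EBF genes are ethylene targets in Arabidopsis. Solyc07g008250 rose in both tissues. It was at 352 ± 62.2 on 2,4-D and 158 ± 10.9 in mock root (SD, n = 2), by 1.14 ± 0.19 (SE, adjusted p = 0.0042), a call that ended without mock root library 1 or without 2,4-D library 1 (highest adjusted p = 0.102). In leaf it was at 798 ± 176 under picloram and 459 ± 9.04 in mock (SD, n = 3), by 0.78 ± 0.15 (SE, adjusted p = 0.00769). Solyc12g009560 rose in leaf by 1.20 ± 0.22 (SE, adjusted p = 0.00608), and its root difference of 0.65 ± 0.27 (SE, adjusted p = 0.263) was not called. The 2 leaf calls held in each of 20 alternatives.

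The EIN3-like factors, which carry the ethylene signal to its target genes, had 2 of 3 tested loci that rose in root, against 3.48% of all root loci called higher. The 2 carry neighbouring identifiers, and whether reads were shared between them was not tested. Solyc06g073720 was at 138 ± 2.46 on 2,4-D and 43.4 ± 10.7 in mock (SD, n = 2), by 1.67 ± 0.38 (SE, adjusted p = 0.028), and lost its call without any 1 root library. Solyc06g073730 had 13.4 and 34.0 on 2,4-D, against 2.63 and 2.25 in mock, by 2.71 ± 0.50 (SE, adjusted p = 0.00861), having reached the minimum only through the 2,4-D libraries. Its call ended without either mock root library, and it was not tested without either 2,4-D library. Of 15 pathway loci tested for a difference of responses it was the 1 called, where 3.76% of all 11313 loci were called. Its response was higher in root than in leaf by 2.95 ± 0.64 (SE, adjusted p = 0.0277). That call ended in 6 alternatives, among them the omission of either mock root library, mock leaf library 2 or picloram library 1 or 3. In leaf 0 of 3 tested EIN3-like loci was called by limma, against 10.2% of all leaf loci, with Solyc06g073720 at 1.05 ± 0.31 (SE, adjusted p = 0.0523). An unadjusted p under 0.05 was found for 1 of the 3, and for 3593 of all 14410 leaf loci. EIN2, the membrane protein between receptors and these factors, was not called in root (0.13 ± 0.25, SE, adjusted p = 0.87) or in leaf (0.01 ± 0.20, SE, adjusted p = 0.991).

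**Figure D4:**
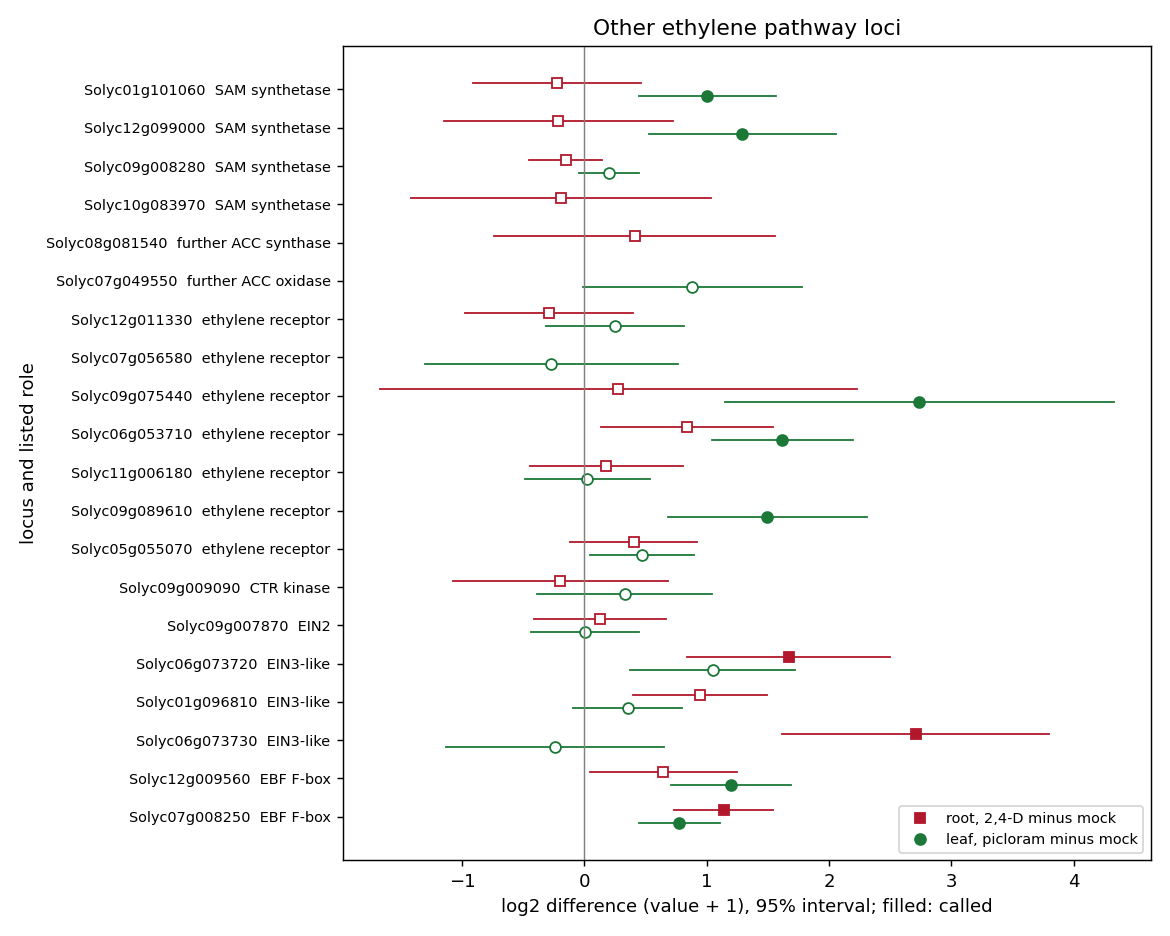
Fitted differences of log2(value + 1) with 95% intervals (horizontal axis) for the further ethylene pathway loci tested in root (squares, 2,4-D minus mock) or in leaf (circles, picloram minus mock), filled where called. Filled points lie on the right of 0, from 0.78 for Solyc07g008250 in leaf to 2.74 for Solyc09g075440 in leaf. All 10 filled points, 3 of root and 7 of leaf, are rises.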

How the data were processed

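Polyadenylated transcripts of 10 libraries were sequenced with a 3' end kit, per the labels' protocols. The authors deposited a signal that is never negative, their normalized count of each locus. The tools listed, with no roles, are Salmon 0.8.2 and DESeq2, per the submitters' processing notes. Build and annotation: not given in the sources used here. The commonest low value of each library was taken as the worth of 1 read. By it, 58.6% to 81.5% of values under 20 reads came within 0.1 of a whole read. That worth was rounded to a histogram bin, which alone can move larger multiples by more than 0.1. The share thus does not decide whether reads can be recovered. Reads were not recovered, no count test was run, and no counting interval is given.

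Groups came from the sample titles. All loci with at least 10 in at least 2 libraries of a tissue were fitted together with limma 3.58.1 in R 4.3.3, with a mean-variance trend, on the log2(value + 1) scale, as 1 model with a mean for each group (6 residual and 5.55 prior degrees of freedom). Fold changes on this scale understate the change of low loci. Treated libraries count toward the minimum, so loci with little signal in mock were tested mainly if they rose. P-values were 2-sided and adjusted over all loci tested in the comparison, called under 0.05. Intervals are 95%. Exact permutation of 2 against 2 libraries could not go below p = 0.333, or of 3 against 3 below 0.1, and was not used. The fit was tested on simulated data, with changes placed only at loci well above the minimum in mock of both tissues. All loci were drawn with the same setting for spread and with libraries independent of each other. The outcome is not given here and is not used as support for any call. The simulation did not cover changes at loci near 0 in a mock group, such as ACS1A.

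The members, the lists and the minimum were chosen with earlier results of these data known. 1 locus of the list is not reported here, and counts of members leave it out. Named loci were every other member, every locus of the pathway list called for the auxin response in root or in leaf, and the 2 loci most correlated with the member of the highest mean among those reported. Calls of the pathway list between mock tissues were not all given. Alternatives changed the pseudocount, the minimum, the scaling, the moderation, the samples sharing the spread and the replicate block, and left out each library in turn. No sequence table was used here.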

Additional observations from a re-analysis of the deposited data

How the results depend on the processing

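Every log2 difference of a member kept its sign under each alternative that tested it, except that of ACO6 in leaf, which ran from -0.13 to 0.12 and turned negative without mock leaf library 3 (-0.13), picloram library 1 (-0.09) or picloram library 3 (-0.01). In root 3 members were called, 1 with a minimum of 20, where ACS1A and ACS8 were not tested, and 2 with equal library totals, where ACS8 was not tested. Between mock tissues 5 were called, and 3 of 3 tested with a minimum of 20. In leaf 1 member was called, 0 with a pseudocount of 0.5, no minimum, a minimum of 20 or leaf fitted alone, and 2 with no mean-variance trend. With a minimum of 20 neither ACS1A nor ACO1 was tested in leaf. Leaving out 1 library gave 1 to 3 members in root, 0 to 1 in leaf, 0 to 1 for the difference of responses and 4 to 5 between mock tissues. A lone library left in a group was taken to vary like the other groups, and each minimum was counted afresh without the omitted library. Over all loci, the 576 root calls became 357 after quantile normalization and 1141 with root fitted alone, and with no mean-variance trend the 1463 leaf calls became 975 and the 425 differing responses 223. Without 1 library they ran from 90 to 669 in root, 876 to 1594 in leaf, 167 to 473 for the difference and 8113 to 9773 between mock tissues. With equal library totals 61.7% of leaf calls were higher, in place of 48.2%, and 31.1% of mock tissue calls were higher in root, in place of 52.4%. The cause was not tested.

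Deviations from the group means of same-numbered libraries correlated at r = 0.108 in root, over 15761 loci. With 2 libraries in each root group, differently numbered libraries had to give the same size with the opposite sign (r = -0.108). In leaf same-numbered libraries gave r = 0.0725, -0.0266 and -0.0266, while picloram library 2 with mock library 3 gave 0.124. The numbers were therefore not taken as pairs. Root, with 2 pairs, does not settle whether its libraries share a source. With the replicate block 1 member was called for the difference of responses, ACO4 (adjusted p = 0.0245), and 0 without it. Depth was not recovered, and members near 10 normalized counts rest on few reads.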
